A study of Mus musculus with 12 samples.

Results

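NKX2-1 binding was compared with the promoter mark H3K4me3 at the protein-coding genes of chromosomes 1 to 19 in fetal mouse lung epithelium. The 6 libraries used, of 12 samples in the series, were 3 with a rabbit antibody against NKX2-1 and 3 with a rabbit antibody against H3K4me3. All came from wild type C57Bl6 mice at E17.5 of gestation, and 100000 cells entered each reaction. The lungs were pooled, and cells carrying the epithelial surface protein EpCAM were taken with magnetic beads. The method was CUT&RUN, in which an antibody tethers a nuclease that cuts out the chromatin beside its target. Whether replicates came from separate pools is not given in the labels, so the spread between libraries may be technical. The 3 IgG control samples were not analysed here. Genes were chosen by position, as every protein-coding gene of RefSeq GRCm38.p6 on these chromosomes, 20665 in all, and were sorted by whether a region of either target lay within 1 kb of an annotated gene end. A region was a stretch of at least 20 bases covered by peaks in at least 2 of the 3 libraries of a target.

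NKX2-1 is a homeodomain transcription factor that specifies lung and thyroid and is needed for both cell types of the alveolus. Alveolar type 2 (AT2) cells make surfactant, the lipid and protein film that keeps the air spaces open, and alveolar type 1 (AT1) cells form the thin gas-exchange surface. H3K4me3, the trimethylated form of lysine 4 on histone H3, sits on nucleosomes flanking the starts of active or poised genes and is broadest at genes that define a cell type.

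The deposited NKX2-1 lists held 51586, 60419 and 76036 autosomal peaks in replicates 1, 2 and 3, and the H3K4me3 lists held 18538, 15057 and 14146. The median fold enrichment of a peak, the authors' ratio of signal to background, was 4.03, 2.44 and 2.40 in the NKX2-1 lists and 14.1, 30.4 and 26.8 in the H3K4me3 lists. NKX2-1 replicate 1 stood apart, with 12708 peaks whose −log10 q reached 5, against 661 in replicate 2 and 1170 in replicate 3. Of 1100 olfactory receptor genes, which serve smell and are silent in lung, 6, 74 and 78 had an NKX2-1 peak within 1 kb in replicates 1, 2 and 3. Replicate 1 of both targets also shares 1 prefix letter in its peak names and replicates 2 and 3 another, and the labels do not say what the letters mark. The labels give at least 15000000 reads per library, and the depth of each is unknown. Counted by regions, the epithelial label held on the lists chosen: 24 of 25 junction and keratin genes carried H3K4me3, among them Epcam, against 57.1% of all genes. Over whole families, 6 of 49 keratin and 7 of 22 claudin genes carried it. The mesenchymal, endothelial and immune and blood lists had it at 5 of 22, 5 of 20 and 4 of 21 genes. Pdgfra, Pecam1 and Ptprc, which define those 3 other lineages, had no H3K4me3 peak within 1 kb of their ends in any library, although Pdgfra had an H3K4me3 region inside the gene. Some other listed mesenchymal and endothelial genes had an H3K4me3 peak in replicate 1 alone, such as Fgf10 (6.85-fold), Tcf21 (4.17-fold), Eng (10.3-fold) and Erg (7.86-fold). Others, such as Pdgfrb and Emcn, had none, and no listed immune or blood gene had one in replicate 1 alone. Of the 8603 genes without a region of either target, 6.79%, 0.825% and 0.174% had an H3K4me3 peak in replicates 1, 2 and 3. The region counts do not show that the libraries lack these lineages equally. In such a bulk sample a peak carried by few cells and a weak peak carried by many cannot be told apart.

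The promoter windows where the NKX2-1 signal was centred are shown first, because they show the sequence under NKX2-1 summits near gene starts. Each window runs from 250 bases before to 50 bases after a RefSeq start, 5′ to 3′ on the gene's strand (GRCm38.p6). Zfp97 (chr17:17121133-17121432, plus strand) and Mblac2 (chr13:81711167-81711466, plus strand) have the strongest NKX2-1 signal among genes with both regions and an NKX2-1 summit of every library in the window. Chia1 (chr3:106113132-106113431, plus strand) is its counterpart among genes with NKX2-1 and no H3K4me3. Sftpb (chr6:72304360-72304659, plus strand), which encodes surfactant protein B, and Mki67 (chr7:135716330-135716629, minus strand), a proliferation marker, were added after their values were seen. Capitals mark matches, on either strand, to CACTTG, the core letters of the NKX2-1 motif, to CCGGAAG, an ETS-factor motif, and to GGGCGG, an SP-factor motif.
Zfp97: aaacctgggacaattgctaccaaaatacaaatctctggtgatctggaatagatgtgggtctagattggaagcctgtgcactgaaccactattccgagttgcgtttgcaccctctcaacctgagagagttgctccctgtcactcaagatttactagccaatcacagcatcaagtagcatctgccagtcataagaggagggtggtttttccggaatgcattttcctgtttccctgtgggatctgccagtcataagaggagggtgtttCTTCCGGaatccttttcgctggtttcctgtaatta
Mblac2: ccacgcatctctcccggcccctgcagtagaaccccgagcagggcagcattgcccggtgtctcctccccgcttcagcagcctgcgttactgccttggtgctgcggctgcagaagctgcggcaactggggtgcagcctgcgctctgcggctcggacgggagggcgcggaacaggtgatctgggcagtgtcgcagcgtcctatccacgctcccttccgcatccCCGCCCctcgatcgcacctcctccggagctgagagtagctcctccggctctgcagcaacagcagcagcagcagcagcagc
Chia1: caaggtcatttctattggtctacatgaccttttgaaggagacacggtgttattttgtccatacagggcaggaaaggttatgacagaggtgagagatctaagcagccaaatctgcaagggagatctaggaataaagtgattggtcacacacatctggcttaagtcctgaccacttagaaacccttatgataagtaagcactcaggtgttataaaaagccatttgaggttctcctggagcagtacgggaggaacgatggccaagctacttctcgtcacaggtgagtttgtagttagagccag
Sftpb: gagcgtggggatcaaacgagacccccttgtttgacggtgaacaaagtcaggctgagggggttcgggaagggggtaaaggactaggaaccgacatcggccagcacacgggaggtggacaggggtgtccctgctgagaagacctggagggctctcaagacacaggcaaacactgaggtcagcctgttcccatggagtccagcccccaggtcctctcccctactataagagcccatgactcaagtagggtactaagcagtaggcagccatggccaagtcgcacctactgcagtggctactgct
Mki67: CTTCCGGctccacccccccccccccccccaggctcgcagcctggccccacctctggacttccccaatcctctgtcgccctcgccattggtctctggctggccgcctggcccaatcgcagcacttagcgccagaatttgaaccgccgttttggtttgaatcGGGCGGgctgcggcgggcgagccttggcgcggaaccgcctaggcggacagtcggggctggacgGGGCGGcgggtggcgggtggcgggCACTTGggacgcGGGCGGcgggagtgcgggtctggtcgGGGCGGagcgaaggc

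The summit is the base of highest signal in a peak. The windows reach farther upstream than downstream and the first 3 genes were picked for summits inside them, so the side on which these summits lie is no result. In Zfp97, whose printed start lies 275 bases inside the annotated gene, the NKX2-1 summit stood at −225, −210 and −211 bases from the start in replicates 1, 2 and 3. In Mblac2 the positions were −202, −158 and −236 bases, and in Chia1 they were −158, −195 and −175 bases, where a minus sign means upstream. Chia1 encodes an acidic chitinase. Sftpb had summits at −246 and −198 bases in replicates 1 and 3 and none in the window in replicate 2. The Mki67 window held summits of replicates 2 and 3 only, at 15 and −48 bases. Only the Mki67 window contained CACTTG, so the windows with summits of all 3 libraries shown here lack those letters. CACTTG was the only NKX2-1 spelling marked, so its absence does not show that a window, such as that of Sftpb, lacks an NKX2-1 site.

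Genes fell mostly into the classes with both regions or with neither. Both regions were present at 9202 genes (44.5%), H3K4me3 only at 2606 (12.6%), NKX2-1 only at 254 (1.23%) and neither at 8603 (41.6%). Of the 11808 genes with H3K4me3, 77.9% had an NKX2-1 region, against 2.87% of the 8857 genes without it. Counted by single NKX2-1 libraries, 93.5%, 65.9% and 76.7% of the H3K4me3 genes had a peak (78.7% ± 13.9, SD, n = 3), against 13.8%, 10.3% and 11.96% of the other genes (12.02% ± 1.73). The 2 sets of shares did not overlap in any pairing of libraries. When each replicate number was classed alone, NKX2-1 peaks lay at 91.3%, 65.9% and 78.1% of the genes with an H3K4me3 peak, so the relation held within each peak-name prefix. Conversely, 97.3% of the 9456 genes with NKX2-1 carried H3K4me3, and at 99.0% of genes with both the regions touched each other. The count with both depends on the NKX2-1 libraries used. With 1 of them left out, a region had to be covered in both that remained, so the count could only fall. It was 5782 without replicate 1, 8154 without replicate 2 and 7007 without replicate 3. Without replicate 1, 6026 genes had H3K4me3 only and 48 NKX2-1 only. No test was made on the classes, since the peaks themselves define them.

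The edge of the classes was broad. Among genes with both, 6612 had an NKX2-1 peak in all 3 libraries and 2590 in 2 of them. Among genes with H3K4me3 only, 1610 still had an NKX2-1 peak in 1 library, 555 in 2 and 49 in 3, and 392 had none. Peaks of 2 or 3 libraries at such a gene formed no region of 20 bases within 1 kb of its ends. Of the 254 genes with NKX2-1 only, 147 had no H3K4me3 peak in any library, 105 had one in 1 library and 2 in 2. H3K4me3 only is therefore mainly a class of NKX2-1 signal seen in a single library, most often replicate 1, which had a peak at 72.9% of these genes, against 13.8% in replicate 2 and 23.3% in replicate 3.

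Lung transcription factors were largely in the class with both regions. Of 32 such genes 26 had both (81.3%, against 44.5% of all genes), 3 had H3K4me3 only and 3 had neither. Of the 29 with H3K4me3, 89.7% had NKX2-1, beside 77.9% over all H3K4me3 genes. Without NKX2-1 replicate 1, 2 or 3 the count with both was 21, 25 or 24. Nkx2-1 itself had NKX2-1 peaks of 5.70-, 4.05- and 4.77-fold and H3K4me3 peaks of 12.5-, 70.5- and 64.6-fold in replicates 1, 2 and 3. Every NKX2-1 library thus listed a peak within 1 kb of an end of its own gene, whose q value was not examined. Grhl2, which controls epithelial junction genes, had NKX2-1 peaks of 9.36-, 5.70- and 9.59-fold, Foxp4, a forkhead factor of lung development, 9.51-, 4.88- and 5.59-fold, and Nfib, which drives fetal lung maturation, 8.56-, 4.88- and 7.19-fold. Grhl2, Foxp4 and Nfib were named because they had the highest NKX2-1 ranks on the list. Foxa2, a partner of NKX2-1 in surfactant gene control, had 13.5-, 3.67- and 3.54-fold, while Sox9, the factor of the distal bud tip, had 4.68-, 4.88- and 4.79-fold. Prdm16 and Mecom, which encode PRDM16 and PRDM3, also had both. Sox2, the factor of the conducting airway, had H3K4me3 of 11.4-, 8.58- and 8.24-fold and an NKX2-1 peak in replicate 1 alone (4.70-fold). The ETS factors Elf3 and Ehf had H3K4me3 only as well, in narrow regions of 881 and 256 bases. Nfia, Elf5 and Sox17 had neither, although H3K4me3 lay inside the Nfia and Elf5 genes away from their ends.

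Lung transcription factor genes were among those with the widest H3K4me3 regions. The widest region near any gene end, 21051 bases on chromosome 12 (56518121 to 56539171), covered Nkx2-1, and single H3K4me3 peaks of 21616, 21051 and 20023 bases spanned it in replicates 1, 2 and 3. It held 7, 9 and 7 NKX2-1 summits in the 3 NKX2-1 libraries and 6 NKX2-1 regions. Next came Irx5 with 15961 bases, Irx2 with 14143, Foxa2 with 12332 and Gata6 with 11847, genes of Iroquois, forkhead and GATA factors of the lung epithelium. Of the 20 widest regions at gene ends, 9 lay at members of the transcription factor list. Besides Irx5, others lay at Smad7, a brake on BMP and TGF-beta signalling, and Fgfr2, the receptor of the branching signal FGF10. The rest lay at Tnrc18, Irs1, Zfp503, Rhof with Setd1b, Bahcc1, Irf2bp2, Zfp516, and Muc1 with Thbs3 and Trim46. All 20 held at least 1 NKX2-1 region, as did 98.7% of the regions in the widest decile and 68.7% of all 15019 H3K4me3 regions. Holding an NKX2-1 region is therefore no trait particular to these 20. The wide regions were looked up after their values were seen and are a description only.

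Surfactant and AT2 genes were divided between the classes. Of 26 genes on the AT2 list, 14 had both (53.8%), 8 H3K4me3 only (30.8%) and 4 neither. Among the 22 with H3K4me3 the share with NKX2-1 was 63.6%, beside 77.9% over all H3K4me3 genes, although their median H3K4me3 width was 3268.5 bases, beside 1721 over all. Leaving out NKX2-1 replicate 1, 2 or 3 left 8, 13 or 10 AT2 genes with both. Cxcl15, a chemokine of lung epithelium, had NKX2-1 peaks of 12.9-, 4.07- and 4.00-fold, and Sftpb had 11.5-, 4.88- and 3.20-fold. Lpcat1, which remodels surfactant phosphatidylcholine, had 5.47-, 5.41- and 3.28-fold. These 3 genes had the highest NKX2-1 ranks on the list. Sftpc, encoding surfactant protein C, had 3.54- and 4.00-fold in replicates 1 and 3 and no peak in replicate 2, in an H3K4me3 region of 5853 bases. Abca3, the lipid transporter of lamellar bodies, had 5.36-, 2.91- and 2.74-fold. Other surfactant genes were H3K4me3 only. Sftpa1 had NKX2-1 peaks of 4.03- and 2.44-fold in replicates 1 and 2 that formed no region there, and Sftpd had 1 peak, in replicate 1 (4.03-fold). Napsa, the aspartic protease that processes surfactant protein B, had 4.75- and 2.40-fold in replicates 1 and 3. Lamp3, a lamellar body protein, had none in any library beside H3K4me3 of 14.4-, 14.5- and 21.5-fold, and so did Elovl1, a fatty acid elongase, beside H3K4me3 of 18.3-, 40.1- and 28.2-fold. Lyz2, Cd36, Chil1 and Hc had neither region, and Hc had H3K4me3 at an internal start.

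AT1 genes were divided as well. Both regions were found at 16 of 24 (66.7%, against 44.5% of all genes), H3K4me3 only at 5 and neither at 3, and 76.2% of the 21 with H3K4me3 had NKX2-1, near the 77.9% over all H3K4me3 genes. Scnn1g, a subunit of the epithelial sodium channel, had NKX2-1 peaks of 13.6-, 5.10- and 3.83-fold. Gprc5a, an orphan receptor of lung epithelium, had 13.4-, 5.53- and 3.54-fold, and Ahnak, a giant scaffold protein, 8.42-, 4.07- and 7.19-fold. These 3 genes were named because they had the highest NKX2-1 ranks on the list. Ager, the receptor RAGE of AT1 membranes, had 3.56-, 4.88- and 4.00-fold, which is below the median peak of replicate 1 and above that of the others. Hopx, an early AT1 factor, was H3K4me3 only, with 1 NKX2-1 peak (4.03-fold in replicate 1) and a region of 739 bases. Pdpn, the podoplanin gene, had NKX2-1 in replicates 1 and 3 (6.04- and 2.40-fold) that formed no region there. Spock2, a matrix proteoglycan gene, had no NKX2-1 peak in any library beside H3K4me3 of 14.4-, 19.6- and 20.6-fold. Cldn18, Clic5 and Pmp22 had neither region at their ends, but each had H3K4me3 at an internal annotated start.

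**Figure D1:**
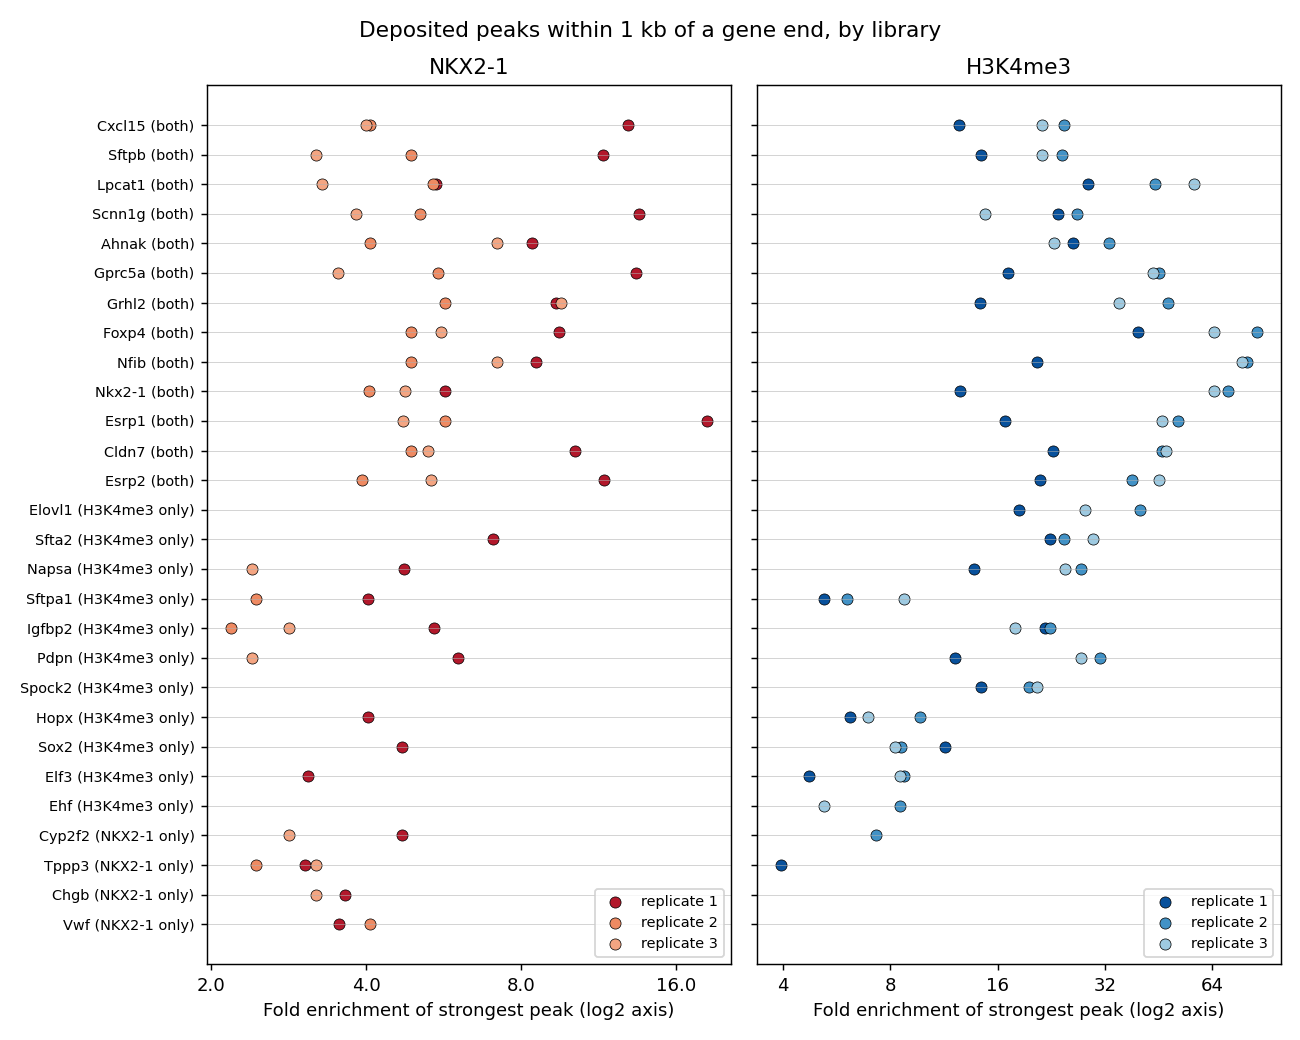
Fold enrichment of the strongest deposited peak within 1 kb of a gene end, for NKX2-1 (left) and H3K4me3 (right), with 1 point per library on a log2 axis; a missing point means no peak. Genes run from both regions at the top to NKX2-1 only at the bottom, and Esrp1 has the highest NKX2-1 point, 18.4-fold in replicate 1.

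Listed general epithelial genes and listed genes of every dividing or living cell were also largely in the class with both. Of 25 junction and keratin genes 23 had both (92.0%), including Esrp1 and Esrp2, which run the epithelial splicing programme, and Cldn7, a tight-junction claudin. Esrp1 had NKX2-1 peaks of 18.4-, 5.70- and 4.71-fold. Only Tjp1 of this list had H3K4me3 only, and Pkp3 had neither at its ends. Whole families differed from the list: keratin genes had both at 5 of 49 (10.2%) and claudin genes at 6 of 22 (27.3%), against 44.5% of all genes. Among 26 cell cycle genes, all with H3K4me3, 22 had both (84.6%, against 44.5% of all genes). Pcna, the DNA polymerase clamp, had 17.9-, 6.51- and 4.79-fold. Housekeeping genes had both at 19 of 23 (82.6%), with Polr2a, the largest RNA polymerase II subunit, at 9.75-, 4.88- and 4.38-fold, whereas Tbp, the TATA-binding protein, had H3K4me3 only. Without NKX2-1 replicate 1, 2 or 3 the count with both on the junction and keratin list was 14, 21 or 18. For cell cycle genes it was 12, 18 or 19, and for housekeeping genes 13, 17 or 17. Signals and receptors of the Wnt, FGF, BMP, SHH and Notch pathways had both at 31 of 35 (88.6%). Their count was 24, 26 or 27 without NKX2-1 replicate 1, 2 or 3. Among members with H3K4me3, 95.8% of junction and keratin, 84.6% of cell cycle, 90.5% of housekeeping and 93.9% of signal genes had NKX2-1. Over all H3K4me3 genes the share was 77.9%. Jag1, a Notch ligand, had 15.8-, 6.01- and 6.06-fold, and Fzd5, a Wnt receptor, had 4.07-, 7.32- and 10.4-fold, with its lowest value in replicate 1. Shh, the hedgehog ligand, had no peak in replicate 1 and 2.44- and 3.20-fold in replicates 2 and 3. Lrp5, a Wnt co-receptor, and Fgfr3 had H3K4me3 only, Gli2 NKX2-1 only, and Axin2 neither at its ends.

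Lipid synthesis genes, which feed surfactant production, had both at 21 of 29 (72.4%, against 44.5% of all genes). Of the 26 with H3K4me3, 80.8% had NKX2-1, near the 77.9% over all H3K4me3 genes. Without NKX2-1 replicate 1, 2 or 3 the count with both was 13, 18 or 18. Chpt1, which makes phosphatidylcholine, had NKX2-1 peaks of 9.32-, 7.45- and 5.47-fold, and Sqle, of cholesterol synthesis, had 10.8-, 5.70- and 5.59-fold. Fasn, the fatty acid synthase gene, had 10.7- and 4.95-fold in replicates 1 and 3 and no peak in replicate 2. Acaca, which makes malonyl-CoA for fatty acid synthesis, had no NKX2-1 peak in any library beside H3K4me3 of 19.3-, 30.4- and 26.1-fold. Enzymes of 1 route were therefore in different classes. Genes of sodium and fluid transport had both at 8 of 18 (44.4%), the share over all genes, with 5 left without NKX2-1 replicate 1 and 4 without replicate 3. Cftr, the chloride channel, had 6.94-, 5.41- and 5.29-fold. Scnn1b, the partner of Scnn1g in the sodium channel, had H3K4me3 only in a region of 243 bases, and the water channel gene Aqp5 had NKX2-1 peaks of 8.0- and 2.19-fold in replicates 1 and 2 without a region.

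Markers of other cell types were mostly in the class with neither. That held for 12 of 16 airway secretory, 10 of 14 neuroendocrine, 17 of 22 mesenchymal, 14 of 20 endothelial, 17 of 21 immune and blood, 14 of 19 neuron, 18 of 20 liver and 16 of 18 muscle genes, beside 41.6% of all genes. Scgb1a1, the club cell secretoglobin, had no peak of either target in any library. Scgb3a2, another secretoglobin of the airway, had H3K4me3 of 8.08- and 6.18-fold in replicates 2 and 3 and no NKX2-1 peak. Ciliated cell genes were split, with 6 of 21 in both, 7 in H3K4me3 only, 1 in NKX2-1 only and 7 in neither. Their count with both was 0, 4 or 4 without NKX2-1 replicate 1, 2 or 3. Foxj1, the master factor of motile cilia, had NKX2-1 peaks of 5.05- and 4.79-fold in replicates 1 and 3 and H3K4me3 of 19.1-, 23.1- and 17.2-fold.

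**Figure D2:**
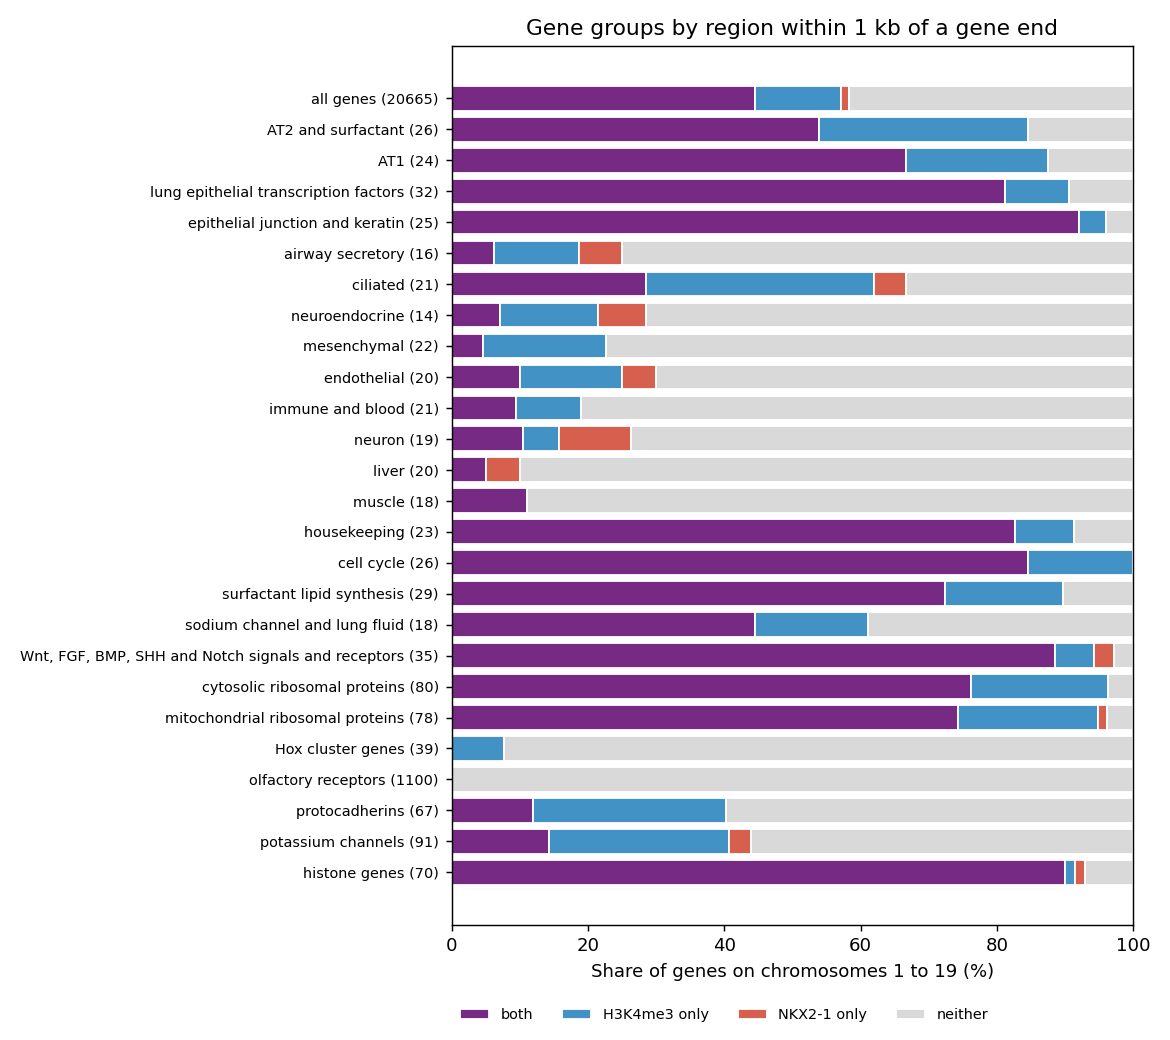
Share of the genes of each list or family (bars, percent, with the number of genes in brackets) with both regions, H3K4me3 only, NKX2-1 only or neither within 1 kb of a gene end. Both regions cover 92.0% of the listed junction and keratin genes and 53.8% of the listed AT2 and surfactant genes, against 44.5% of all genes.

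Large gene families spread in the same way. Cytosolic ribosomal protein genes had both at 61 of 80 (76.3%), mitochondrial ribosomal protein genes at 58 of 78, respiratory complex I genes at 26 of 35 and proteasome genes at 31 of 38, against 44.5% of all genes. Among their members with H3K4me3, 79.2%, 78.4%, 76.5% and 88.6% had NKX2-1, beside 77.9% over all H3K4me3 genes. Histone genes had both at 63 of 70 (90.0%), with NKX2-1 high in rank, but near-identical copies lie close together and reads may be shared among them. Of 39 Hox cluster genes, which pattern the body axis, 0 had both and 3 had H3K4me3 only. Protocadherins (8 both, 19 H3K4me3 only, of 67) and potassium channels (13 both, 24 H3K4me3 only, of 91) had more genes with H3K4me3 only than with both. Their H3K4me3 regions were narrow, at medians of 392 and 983 bases. Of the 1100 olfactory receptors, 1099 had neither.

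The strongest NKX2-1 signal lay mostly at pairs of genes that share an end, outside every list. Zranb3, a helicase of stalled replication forks, and R3hdm1 share an end and had NKX2-1 peaks of 28.8-, 13.02- and 15.98-fold and H3K4me3 peaks of 19.4-, 46.8- and 40.5-fold. Polr3g, an RNA polymerase III subunit, and Mblac2 had 32.2-, 8.95- and 11.2-fold. In both of these pairs the strongest peak of a library was the same for both genes. Of the 100 genes with the highest NKX2-1 rank in the class with both, 62 had another gene's end within 1 kb, against 38.3% of the class and 25.6% of all genes. The strongest H3K4me3 without an NKX2-1 region was at Aebp2, which encodes a Polycomb cofactor (103-fold in replicate 2), with an NKX2-1 peak of 7.46-fold in replicate 1 alone. Wapl, the cohesin release factor, also had a single NKX2-1 peak, of 2.44-fold in replicate 2.

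The 254 genes with NKX2-1 only had lower NKX2-1 fold enrichment than genes with both. Their median NKX2-1 fold enrichment was 4.70, 3.20 and 2.84 in the libraries with a peak, against 6.89, 3.86 and 4.00 at genes with both. Where the strand was known, the NKX2-1 region lay at the gene start in 74.9% of 191 such genes, against 97.6% of 7465 genes with both, and at the other end alone in 25.1%, against 2.36%. Caps2, of a calcium-binding protein, ranked first with 14.1-, 5.67- and 4.77-fold and H3K4me3 in replicate 3 alone (6.80-fold). Liph, a phosphatidic acid lipase, had 10.5-, 4.07- and 6.36-fold and no H3K4me3 peak. Tmprss2, a serine protease of airway and alveolar epithelium, had 6.81-, 3.26- and 4.00-fold and H3K4me3 in replicate 1 alone (5.48-fold). Aktip had 8.49-, 4.07- and 8.79-fold and an H3K4me3 peak of 44.3-fold within 1 kb in replicate 2 alone. Of the 254 genes, 81 (31.9%) had an H3K4me3 region inside the gene or within 5 kb. The same count was not made over all genes, so this share is not read as a trait of the class. The list members in this class were Cyp2f2, Tppp3, Chgb, Vwf, Tubb3, Stmn2, Apoa1 and Gli2. For Cyp2f2, a club cell cytochrome, the region was at the far end of the gene, with peaks of 4.70- and 2.83-fold in replicates 1 and 3. Among the 8603 genes with neither, 983 had an H3K4me3 region somewhere inside the gene.

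H3K4me3 regions were wider where NKX2-1 was present. Their median width was 1899 bases at genes with both and 1113 bases at genes with H3K4me3 only (interquartile ranges 1412 to 2537 and 707 to 1522.75). Measured in single H3K4me3 libraries, the medians were 2163, 1902 and 1761 bases at genes with both, and 1373, 1132.5 and 1039 bases at genes with H3K4me3 only. The difference was 790, 769.5 and 722 bases (760.5 ± 34.9, SD, n = 3) and had the same sign in all 3. H3K4me3 was also stronger, with median fold enrichments of 20.7, 43.8 and 35.7 at genes with both, and 15.0, 20.6 and 19.3 at genes with H3K4me3 only. Sorted into deciles by width, 33.2% of genes in the narrowest decile (median 563 bases) and 96.1% in the widest (3826 bases) had an NKX2-1 region. Set against length, the pattern differed between libraries. Per kb of H3K4me3 region, NKX2-1 replicate 1 had 1.09 summits per kb in the narrowest decile of all regions and 0.441 in the widest, replicate 2 had 0.266 and 0.445, and replicate 3 had 0.452 and 0.513. Per base, the density fell with width in replicate 1 and was higher in the widest decile than in the narrowest in replicates 2 and 3.

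**Figure D3:**
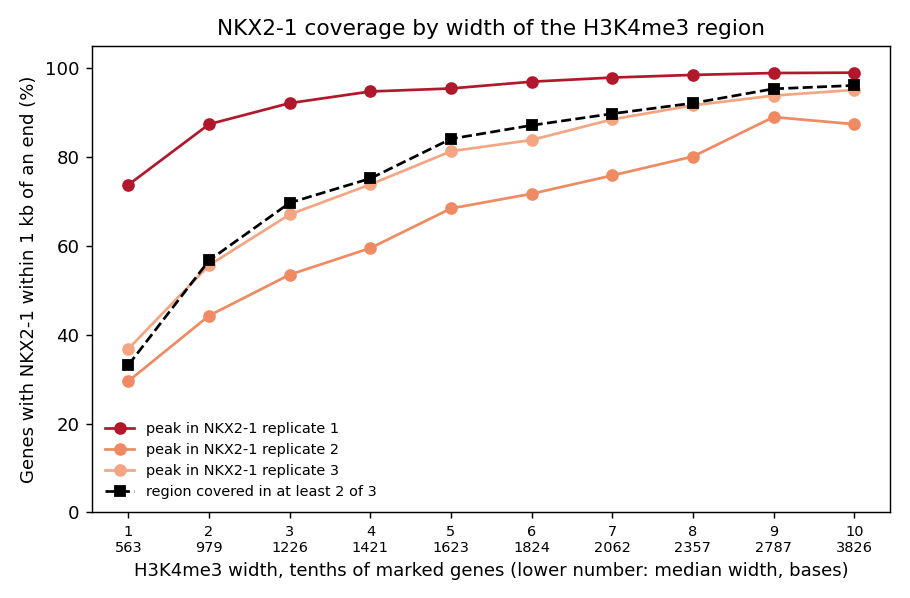
Share of H3K4me3 genes with NKX2-1 within 1 kb of an end (percent) against the width of the H3K4me3 region, in deciles of genes with the median width in bases under each; red lines are single NKX2-1 libraries and the dashed line is regions covered in at least 2 of 3. The dashed line runs from 33.2% to 96.1%.

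Inside H3K4me3 regions NKX2-1 summits lay farther from the centre than H3K4me3 summits did. The distance was scaled so that 0 is the centre of a region and 1 its edge. NKX2-1 medians were 0.404, 0.380 and 0.362 over 14334, 10177 and 12388 summits, and H3K4me3 medians were 0.258, 0.222 and 0.231 over 14177, 14352 and 13956 summits. All 3 NKX2-1 libraries were above all 3 H3K4me3 libraries. The means were 0.382 ± 0.0212 for NKX2-1 and 0.237 ± 0.0187 for H3K4me3 (SD, n = 3 each), a difference of 0.145. The innermost 25% of the way from centre to edge held 33.4% ± 1.67 of NKX2-1 and 52.2% ± 3.05 of H3K4me3 summits, and the outermost 25% held 12.6% ± 1.42 and 2.98% ± 0.841. The H3K4me3 libraries also set the regions and their centres, so these values are a description, with no test. Regions held 27.8%, 16.8% and 16.3% of all NKX2-1 summits, against 76.5%, 95.3% and 98.7% of H3K4me3 summits, a share that the making of the regions fixes.

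**Figure D4:**
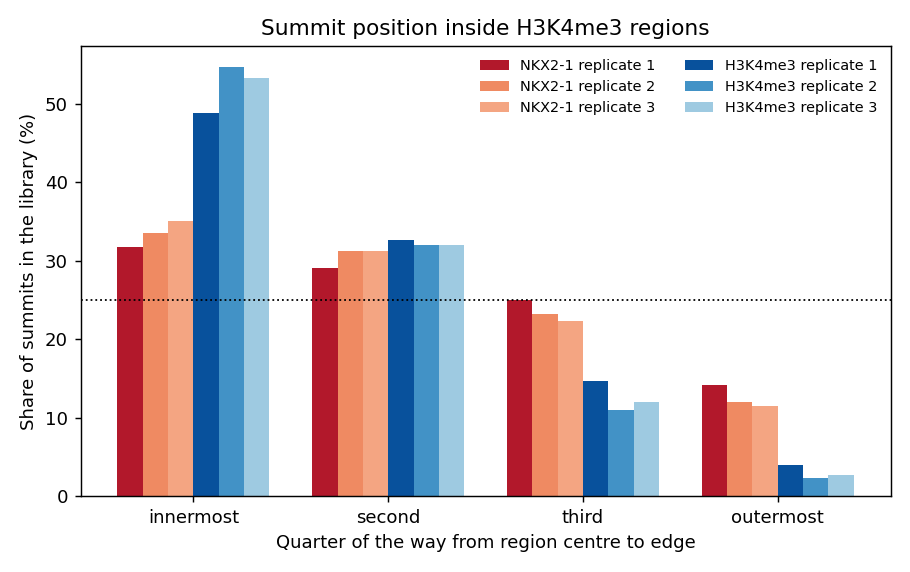
Share of each library's summits inside H3K4me3 regions (percent) by steps of 25% of the way from the region's centre to its edge; red bars are the 3 NKX2-1 libraries, blue bars the 3 H3K4me3 libraries, and the dotted line marks 25%. The outermost step holds 12.6% of NKX2-1 and 2.98% of H3K4me3 summits on average.

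At gene starts NKX2-1 summits were spread over both sides, whereas H3K4me3 summits sat downstream. Of the summits inside H3K4me3 regions and within 1 kb of a RefSeq start, 36.5%, 40.0% and 35.4% in the NKX2-1 libraries were upstream (37.3% ± 2.42, SD, n = 3), against 15.9%, 11.8% and 12.3% in the H3K4me3 libraries (13.3% ± 2.23). The lowest NKX2-1 library was above the highest H3K4me3 library, and the difference was 23.9 percentage points (exact two-sided permutation p = 0.1, the smallest possible). At starts with no other start within 1 kb, which leaves out divergent pairs, the shares were 37.9% for NKX2-1 and 11.8% for H3K4me3, a difference of 26.1 points. The median position of NKX2-1 summits was 95, 81 and 117 bases downstream of the start, against 220, 209 and 204 bases for H3K4me3. Summits within 100 bases of the start made up 22.4% of NKX2-1 and 12.1% of H3K4me3 summits on average. Those 100 to 400 bases downstream made up 33.5% of NKX2-1 and 56.97% of H3K4me3 summits.

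Distance in either direction depended on which peaks were counted. The median distance of summits in H3K4me3 regions from the nearest start was 353, 416 and 469 bases in the NKX2-1 libraries and 456, 392 and 397 bases in the H3K4me3 libraries, a difference of −2.33 bases (exact two-sided permutation p = 1). The ranges of all peaks overlapped, and the sign turned without NKX2-1 replicate 1 (27.5 bases) or without H3K4me3 replicate 1 (6.17 bases). The difference, NKX2-1 minus H3K4me3, was −168.7 bases when only peaks whose −log10 q reached 5 were kept, −79 bases with the 14000 strongest peaks of a library and −90.7 bases with the strongest summit of each region. In these 3 settings the libraries of the targets did not overlap, and each exact permutation p was 0.1. Over the 7 summit measures tested, the Benjamini-Hochberg adjusted exact permutation p was 0.14 at the lowest, so none passed 0.05. Compared within the same region, the strongest NKX2-1 summit lay upstream of the strongest H3K4me3 summit in 63.1% to 73.3% of regions over the 9 pairs of libraries, with median offsets from −164 to −99 bases. NKX2-1 replicate 1 gave the highest shares, from 72.1% to 73.3%.

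**Figure D5:**
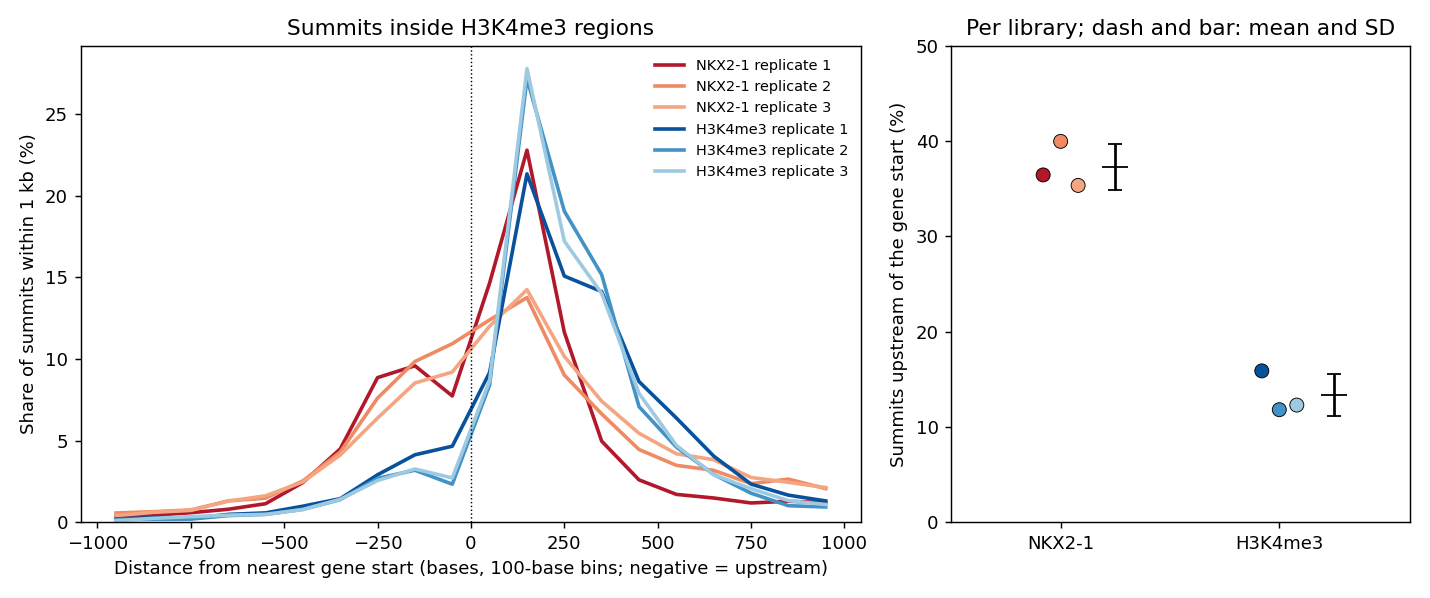
Left, share of summits inside H3K4me3 regions and within 1 kb of a gene start (percent, bins of 100 bases, negative is upstream) for each library; right, the share upstream per library, with mean and SD. NKX2-1 libraries have 35.4% to 40.0% of summits upstream and H3K4me3 libraries 11.8% to 15.9%.

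Promoter sequence differed between the classes. The windows of 300 bases described above were at hand for 16457 of the 20665 genes (79.6%). The CpG ratio, the number of CG steps observed over that predicted from base content, had medians of 0.801 for both, 0.702 for H3K4me3 only, 0.365 for NKX2-1 only and 0.207 for neither. GGGCGG was present in 70.2%, 59.8%, 39.3% and 18.7% of the windows of those classes in the same order, against 47.3% of all, and CCGGAAG in 19.7%, 15.9%, 3.66% and 3.28%, against 12.3% of all. CACTTG, which also contains an E-box (CANNTG), went the other way. It was present in 10.1% of windows at genes with both, 11.1% with H3K4me3 only, 19.9% with NKX2-1 only (38 of 191) and 15.9% with neither, against 12.7% of all. Windows with NKX2-1 summits of 0, 1, 2 and 3 libraries held it in 13.8%, 10.6%, 9.05% and 7.90%. The median CpG ratios of these 4 sets also differed, at 0.389, 0.789, 0.842 and 0.819. The sets were not split by CpG ratio, so their series is not read as a trait of NKX2-1 summits. Base content also differed between the classes, and their windows were split by it. Among those with a CpG ratio under 0.6, CACTTG stood in 14.6% of windows with both and 15.6% with H3K4me3 only. It stood in 25.2% with NKX2-1 only (35 of 139) and 16.7% with neither, against 16.4% of all such windows. Among those with a ratio of at least 0.6 the order differed, at 8.95% with both, 8.63% with H3K4me3 only, 5.77% with NKX2-1 only (3 of 52) and 10.5% with neither, against 9.05% of all. These are counts of letters in 1 window per gene, not of bound sites.

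PRDM16 and PRDM3, zinc-finger proteins mapped in the same cells, gave a readout that the classes did not use. A PRDM16 region, covered in both PRDM16 libraries, lay within 1 kb of an end at 88.5% of genes with both, 56.7% with H3K4me3 only, 56.7% with NKX2-1 only and 7.88% with neither, against 50.5% of all genes. For PRDM3, from 1 library, the shares were 87.3%, 55.1%, 44.9% and 8.15%, against 49.7% of all. Classes also differed in gene length, with medians of 23.6, 21.7, 17.2 and 10.1 kb from both to neither. No test was run on these shares, which come from 2 PRDM16 libraries and 1 PRDM3 library.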

How the data were processed

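The submitters' processing notes name mm10 as the build and list Trimmomatic, Bowtie2, MACS2 and HOMER. Versions, settings and any control library in peak calling are not given in the sources used here. For each sample used here the authors deposited 1 narrowPeak list, with a score, a fold enrichment (a ratio of signal to background), −log10 p and −log10 q values, and a summit offset for each peak. The deposited fold enrichment is the authors' own value and was used only to describe or rank peaks within a list. No sample was pooled across libraries by the authors, as far as the files show.

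Peaks on chromosomes 1 to 19 were kept. NKX2-1 and H3K4me3 regions were stretches of at least 20 bases covered in at least 2 of 3 libraries. Gene ends came from RefSeq GRCm38.p6, the assembly of mm10, in a table without strand. Strand, starts and promoter sequences came from RefSeq promoters, which covered 79.6% of genes. The gene start is used only where it was known. Summits are the peak start plus the offset. Libraries were compared by exact two-sided permutation of 3 against 3, and pairing of equal replicate numbers by sign changes. Shares, widths, lists and summit positions relative to region centres, which the H3K4me3 libraries set, are described without a test. Named genes are Nkx2-1 and, in each list and over all genes, the highest by mean percentile of fold enrichment within libraries (NKX2-1 for genes with NKX2-1, H3K4me3 for H3K4me3 only), with the first in alphabetical order among genes with neither. Further list members, the widest regions and the promoters of Sftpb and Mki67 were named after their values were seen. The genes compared, the 18 lists, 19 families and most tests were chosen with earlier results of these data known. The share of summits upstream of starts was added after seeing the data.

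The class and summit steps were tested on simulated peaks with known answers. Alternatives were other windows, gene starts only, regions in all 3 libraries, stricter or equal-length peak lists, isolated genes, the strongest summit per region and leaving out each library. Python 3.11.15, numpy 2.4.6, pandas 2.3.3, scipy 1.17.1 and matplotlib 3.10.9 were used.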

Additional observations from a re-analysis of the deposited data

How the results depend on the processing

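NKX2-1 peaks of low confidence set the size of the classes. With regions covered in all 3 libraries, 5485 genes had both, 5878 H3K4me3 only and 43 NKX2-1 only, 48.3% of H3K4me3 genes had NKX2-1, and the width difference was 646 bases. With only peaks whose −log10 q reached 5, the values were 1325, 10408 and 2 genes and 11.3%. With lists limited to the 14000 strongest peaks they were 5950, 5610 and 56 genes, 51.5% and 702 bases. Among genes of known strand, counting starts only gave 147 with NKX2-1 only, against 191 of them by either end, and genes with no other gene end within 2 kb numbered 4901 with both and 1598 with H3K4me3 only, a smaller set by construction. Leaving out 1 library in turn gave 5782 to 9173 genes with both, 2282 to 6026 with H3K4me3 only, 48 to 326 with NKX2-1 only, shares of 49.0% to 80.0% and width differences of 661 to 769 bases. The lowest share came without NKX2-1 replicate 1. In these settings a region of the target with 1 library left out had to be covered in both remaining libraries. The cause of these changes was not tested. The number of list members with both moved by more than 1.5 times in 18 of 18 lists at the stricter q and in 10 when lists were limited to 14000 peaks. It did so in 13, 5 and 5 lists without NKX2-1 replicates 1, 2 and 3, and in 1, 1 and 0 without H3K4me3 replicates 1, 2 and 3.

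The summit position and the share upstream of a start kept their direction under the alternatives run for them, at 0.110 to 0.160 and at 22.6 to 33.2 percentage points. The difference in median distance to a start lay between −30.5 and 27.5 bases when 1 library was left out, and was positive without NKX2-1 replicate 1 (27.5) and without H3K4me3 replicate 1 (6.17). It was −168.7 bases with only peaks whose −log10 q reached 5, −79 with the 14000 strongest peaks and −90.7 with the strongest summit per region (exact p = 0.1 each), and −29.3 (exact p = 0.2) with summits within 1 kb of a start. Equal replicate numbers did not clearly pair the libraries. Deviations from the group mean at 6638 genes correlated at 0.247, 0.0893 and 0.159 for numbers 1, 2 and 3. NKX2-1 replicate 1 against H3K4me3 replicates 2 and 3 gave −0.189 and −0.188. NKX2-1 replicates 2 and 3 against H3K4me3 replicate 1 gave −0.104 and −0.196. NKX2-1 replicate 2 against H3K4me3 replicate 3 gave 0.0692, and replicate 3 against replicate 2 gave 0.141. The signs thus followed the peak-name prefix, whose meaning the labels do not give. With the replicate block the summit position differed by 0.145, the distance by −2.33 bases (p = 1) and the upstream share by 23.9 points (exact p = 0.25), where 0.25 is the smallest p that 3 pairs allow. The depth of each library is unknown, so a missing NKX2-1 peak is not evidence of absence.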
